A study of Mus musculus with 18 samples.

Results

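The 36 genes described here act in the thick ascending limb of the loop of Henle, the distal convoluted tubule and the connecting tubule of the kidney, where they handle salt, magnesium, calcium and potassium or receive hormones. They were taken from the expression table by symbol, from a written list, and all 36 were found among its 19518 genes. RNA was measured in 18 libraries of frozen kidney from ICR mice, an outbred strain, at 10 weeks of age, in 6 groups of 3. HFD+AOS-FMT mice ate a high fat diet (HFD) and received a faecal microbiota transplant (FMT, gut microbes from a donor) labelled AOS at 10 mg/kg. HFD+control-FMT mice ate the same diet and received a transplant labelled control. HFD+AOS mice ate the diet and were given AOS at 10 mg/kg, and HFD mice ate the diet alone. AOS mice were given AOS at 10 mg/kg with no high fat diet in their label, and control mice carry the label control. AOS is written as in the labels, which give no full name and do not describe the donors. Whether the 3 libraries of a group are 3 animals is not stated, and the p-values therefore reflect only how these samples spread, which can be technical.

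In the thick limb, sodium, potassium and chloride enter the cell together from the urine, and chloride leaves on the blood side. A voltage that comes with salt transport drives calcium and magnesium between the cells through claudin pores. The distal convoluted tubule takes up sodium with chloride through a cotransporter that a chain of kinases switches on, and takes up magnesium through channels. The late distal convoluted tubule and the connecting tubule move calcium through the cell with a channel, binding proteins and pumps, under parathyroid hormone and other signals.

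Values are normalized signals per gene with no stated unit, treated as normalized for gene length and depth, and the number of reads is unknown. Control replicate 3 stood apart from the other libraries. Kap, a protein of the proximal tubule, made 2.48% of the summed signal there and 17.2% to 22.9% in the other 17 libraries, and 8 adrenal cortex markers summed to 978 against 1.57 to 4.30. Its proximal tubule markers summed to 4329, against 5635 to 8999 elsewhere, its principal cell markers to 370 against 101 to 227, and its 5 tubule injury markers to 2897 against 280.1 to 717. Its podocyte (102), endothelium (93.6), macrophage (85.2) and intercalated cell (59.2) sums were also above those elsewhere (at most 67.6, 75.3, 52.2 and 54.5). Its adipose and germ cell sums lay within the range of the other libraries. Among the marker lists used, only adrenal and germ cell genes were at 0 in all libraries of a group (up to 2 and up to 7 of 8). Of the germ cell list, 7 transcripts summed to 27.2 to 41.2 in 5 libraries (control replicates 1, 2 and 3 and HFD replicates 1 and 2) and to at most 0.3 in the other 13. The log2 differences tested against the controls are therefore given also without control replicate 3.

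The sequences before and at the transcription start are shown for 4 genes. They are Klk1, the gene that passed the test in 1 comparison, Atp1b1, the gene with the smallest p in 2 comparisons, and Umod with Slc12a1, whose levels moved together across libraries. Each run holds 250 bases before and 50 bases after the start, 5′ to 3′, from RefSeq on GRCm38.p6 (mm10), and capitals mark matches to 3 motifs searched on both strands. Klk1 is chr7:44225110-44225409 on the plus strand, Atp1b1 chr1:164458306-164458605 on the minus strand, Umod chr7:119479213-119479512 on the minus strand and Slc12a1 chr2:125152350-125152649 on the plus strand.
Klk1: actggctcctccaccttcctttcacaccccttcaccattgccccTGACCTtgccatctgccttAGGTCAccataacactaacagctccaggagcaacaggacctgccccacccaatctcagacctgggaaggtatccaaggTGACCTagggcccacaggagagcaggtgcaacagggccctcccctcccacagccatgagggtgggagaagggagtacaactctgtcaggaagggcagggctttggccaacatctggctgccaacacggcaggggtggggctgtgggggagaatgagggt
Atp1b1: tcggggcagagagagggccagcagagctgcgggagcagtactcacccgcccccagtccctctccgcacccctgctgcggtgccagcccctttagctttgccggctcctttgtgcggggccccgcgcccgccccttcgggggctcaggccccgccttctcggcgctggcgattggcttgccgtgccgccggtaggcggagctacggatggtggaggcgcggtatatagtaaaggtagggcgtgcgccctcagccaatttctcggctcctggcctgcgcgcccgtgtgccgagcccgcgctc
Umod: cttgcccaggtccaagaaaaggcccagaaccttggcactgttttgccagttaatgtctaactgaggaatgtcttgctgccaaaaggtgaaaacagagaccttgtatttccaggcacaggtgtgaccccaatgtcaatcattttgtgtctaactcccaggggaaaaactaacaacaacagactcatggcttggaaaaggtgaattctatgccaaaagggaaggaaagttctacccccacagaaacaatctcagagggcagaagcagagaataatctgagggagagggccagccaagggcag
Slc12a1: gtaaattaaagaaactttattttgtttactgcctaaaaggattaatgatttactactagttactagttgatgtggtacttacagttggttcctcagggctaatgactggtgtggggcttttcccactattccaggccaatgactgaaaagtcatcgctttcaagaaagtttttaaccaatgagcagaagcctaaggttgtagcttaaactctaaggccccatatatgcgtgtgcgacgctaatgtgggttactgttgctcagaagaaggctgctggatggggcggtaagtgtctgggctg
Klk1 holds AGGTCA, the core of many nuclear receptor sites, and the runs of the other 3 genes hold none of the motifs. Of the 32 members with a promoter entry, 4 held AGGTCA, against 16.3% of 32851 promoters. TATAAA, the TATA box, was in 4 members and 13.6% of promoters, and CACGTG, an E-box, in 2 members and 7.15%. The members are counted as genes, with 43 promoter entries among them, and the shares are of promoters, so the units differ. The motifs do not overlap in their letters, and a match or its absence says only which letters are in the window. Fxyd2 and Calb1 have no sequence shown.

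The 36 genes covered a wide range of levels. Fxyd2 averaged 6819 over the 18 libraries, Klk1 1319, Atp1b1 1052, Umod 755 and S100g 664, while Trpm6 averaged 2.92 and Klhl3 2.11. Of the 36, 34 passed the filter of a signal of at least 1 in 3 libraries, and each of these was above 1 in every library. Cldn14, a claudin that blocks cation pores of the thick limb, ranged between 0 and 0.99 and was listed at 0 in 2 libraries. Pth2r, a receptor of the parathyroid hormone receptor family, was listed at 0 in 14 libraries and reached 0.06. Leaving out control replicate 3, the highest library was 1.24 times the lowest for Cul3, 1.62 times at the median of the 34 genes and 4.54 times for Slc12a1.

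Control replicate 3 was the highest of the 18 libraries for 23 of the 34 tested genes, and 49.9% of all 12030 tested genes had their highest value there. It was the lowest for 2, Pth1r and Cldn10, against 9.39% of all tested genes. Its median ratio to the mean of control replicates 1 and 2 was 1.52 over the 34 genes, with a range of 0.614 for Pth1r to 3.94 for Trpv5, and 7 genes were more than 2-fold higher. Its log2(value + 1) exceeded the mean of the other controls by a median of 0.59 over the 34 genes and 0.23 over all tested genes. The part that the adrenal, injury, proximal tubule and other cell markers of this library have in these differences was not tested.

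**Figure D1:**
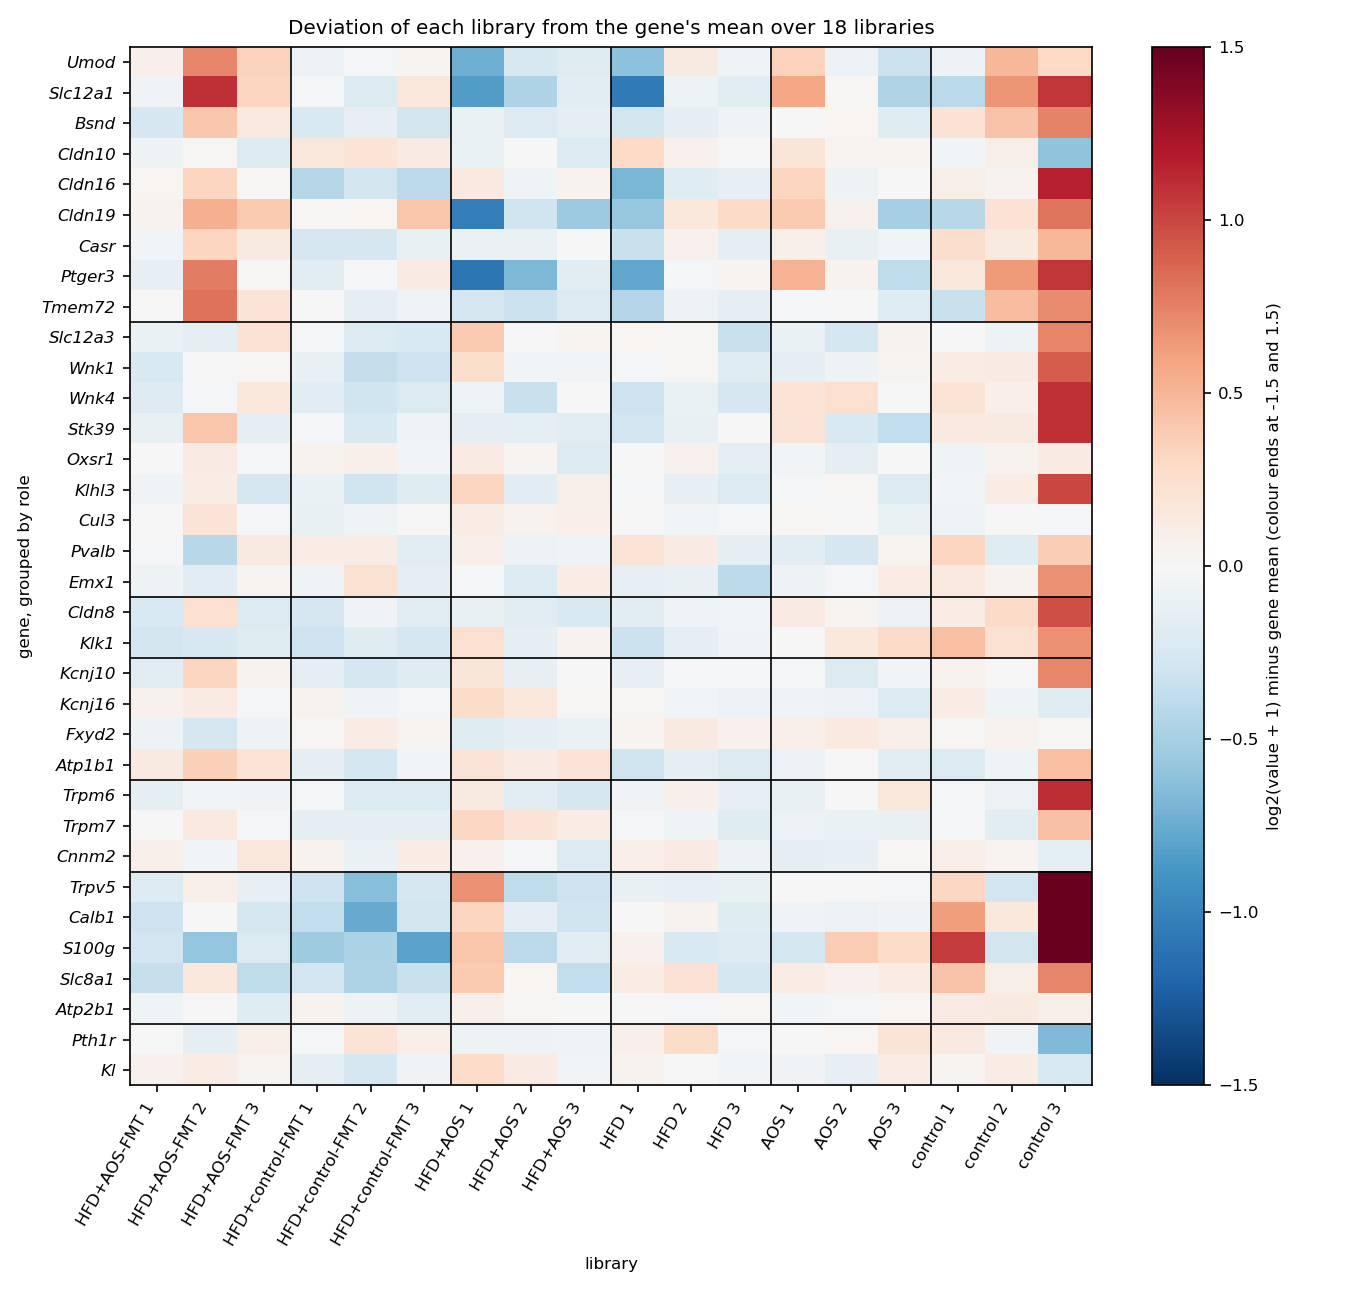
Heat map of 34 genes (rows, by role) in 18 libraries (columns, by group), coloured by log2(value + 1) minus the gene's mean over all libraries, with colours ending 1.5 above and below 0. Control replicate 3 is the highest library for 23 of the 34 genes, and some thick limb genes vary widely between libraries within the groups.

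In the thick limb, the levels of some genes, Umod and Slc12a1 among them, varied widely between libraries of the same group. Umod, which encodes uromodulin, the main protein of normal urine, stood at 772, 1220.5 and 932 in HFD+AOS-FMT, 687, 717 and 751 in HFD+control-FMT, and 440.2, 619 and 648 in HFD+AOS libraries. It stood at 476, 804 and 698 in HFD, 929.8, 687 and 583 in AOS, and 693, 1032 and 898 in control libraries. HFD+AOS replicate 1 and HFD replicate 1 were the lowest and HFD+AOS-FMT replicate 2 the highest. The HFD+AOS-FMT libraries were above all HFD+control-FMT and HFD+AOS libraries and overlapped with the other groups. Against HFD, Umod was 0.57 higher on the log2 scale in HFD+AOS-FMT libraries and did not pass (limma adjusted p = 0.288).

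Slc12a1, the sodium, potassium and chloride cotransporter that loop diuretics block, stood at 100.8, 226 and 131 in HFD+AOS-FMT, 103, 91.3 and 118 in HFD+control-FMT, and 58.3, 76.2 and 93.2 in HFD+AOS libraries. It stood at 49.8, 99.8 and 92.8 in HFD, 157, 106 and 76.6 in AOS, and 78.8, 166 and 223 in control libraries. HFD replicate 1 and HFD+AOS replicate 1 were again the lowest libraries and HFD+AOS-FMT replicate 2 the highest. On the length-normalized scale, relative to Slc12a3, its counterpart in the distal convoluted tubule, Slc12a1 was 1.24 ± 0.627 times as high in HFD+AOS-FMT, 0.922 ± 0.154 in HFD+control-FMT, 0.558 ± 0.188 in HFD+AOS, 0.700 ± 0.281 in HFD, 0.977 ± 0.379 in AOS and 1.02 ± 0.387 in control libraries (SD, n = 3 each). In whole kidney, fewer cells of a type and less RNA per cell cannot be told apart. The principal cell markers summed to 227 in HFD+AOS-FMT replicate 2, their highest outside control replicate 3, and to 100.8 in HFD replicate 1, their lowest. HFD+AOS replicate 1 stood at 127.7, within the range of the other libraries. In HFD+AOS-FMT replicate 2 the podocyte (67.6) and endothelium (75.3) sums were also the highest outside control replicate 3. Its intercalated cell (43.8) and macrophage (31.5) sums were not. Its proximal tubule sum was 6128, against 8999 and 8309 in HFD+AOS-FMT replicates 1 and 3. Its tubule injury sum was 444, against 325.2 and 325.4, and its share of Kap 18.2%, against 22.9% and 20.3%. HFD+AOS-FMT replicate 2 was the highest library for 9.19% of all tested genes. The part of these markers in the thick limb values was not tested.

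Bsnd, the subunit of the chloride channels on the blood side, stood at 12.4, 20.2 and 16.6 in HFD+AOS-FMT, 12.6, 13.7 and 12.2 in HFD+control-FMT, and 13.9, 13.0 and 13.6 in HFD+AOS libraries. It stood at 12.2, 13.4 and 14.4 in HFD, 14.99, 15.3 and 13.1 in AOS, and 17.6, 20.6 and 25.9 in control libraries. The controls lay above all AOS, HFD, HFD+AOS and HFD+control-FMT libraries and overlapped with HFD+AOS-FMT. Casr, the receptor that senses blood calcium and restrains transport, stood at 7.49, 9.97 and 8.65 in HFD+AOS-FMT, 6.36, 6.39 and 7.09 in HFD+control-FMT, and 7.17, 7.15 and 7.76 in HFD+AOS libraries. It stood at 5.93, 8.13 and 6.94 in HFD, 8.27, 7.11 and 7.51 in AOS, and 9.52, 8.64 and 11.4 in control libraries. The controls lay above all HFD and AOS libraries and overlapped with HFD+AOS-FMT.

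Among the claudins, which set what passes between cells, Cldn16 and Cldn19 together form the pore for calcium and magnesium. Cldn16 lay between 3.20 and 7.45 in 17 libraries and at 14.2 in control replicate 3, and Cldn19 between 6.54 and 21.3 against 26.01. Cldn10, which makes a sodium pore in the thick limb and has another isoform in the proximal tubule, lay between 240.3 and 343 in 17 libraries and at 183 in control replicate 3. The table gives 1 value per gene, so the isoforms of Cldn10 are not separated. Ptger3, a prostaglandin E receptor of the thick limb, ranged between 5.86 and 29.4, and Tmem72, a membrane protein, between 7.57 and 19.6.

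Outside control replicate 3, the highest library was between 1.24 (Cul3) and 1.90 (Klhl3) times the lowest for the salt genes of the distal convoluted tubule, and between 1.43 (Cldn10) and 4.54 (Slc12a1) times for the thick limb genes, so the ranges of the 2 roles overlap. Slc12a3, the sodium and chloride cotransporter that thiazides block, lay between 99.8 and 166 in 17 libraries and at 210.2 in control replicate 3. Of the kinases that act on it, Wnk1 and Wnk4 lay between 24.7 and 38.6 and between 26.9 and 40.7, against 60.4 and 74.1 in control replicate 3. Stk39, which phosphorylates the cotransporter (the kinase SPAK), lay between 9.05 and 16.3 against 26.7, and its relative Oxsr1 between 9.30 and 11.99 in all 18 libraries. Klhl3 and Cul3, parts of the ubiquitin ligase that removes WNK kinases, differed in spread. Klhl3 lay between 1.47 and 2.80 with 5.09 in control replicate 3, and Cul3 between 39.8 and 49.5 with 42.4. Pvalb, a calcium binding protein of the early distal convoluted tubule, lay between 91.5 and 153 with 159 in control replicate 3, and Emx1, a homeobox transcription factor, between 21.4 and 33.4 with 46.1.

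**Figure D2:**
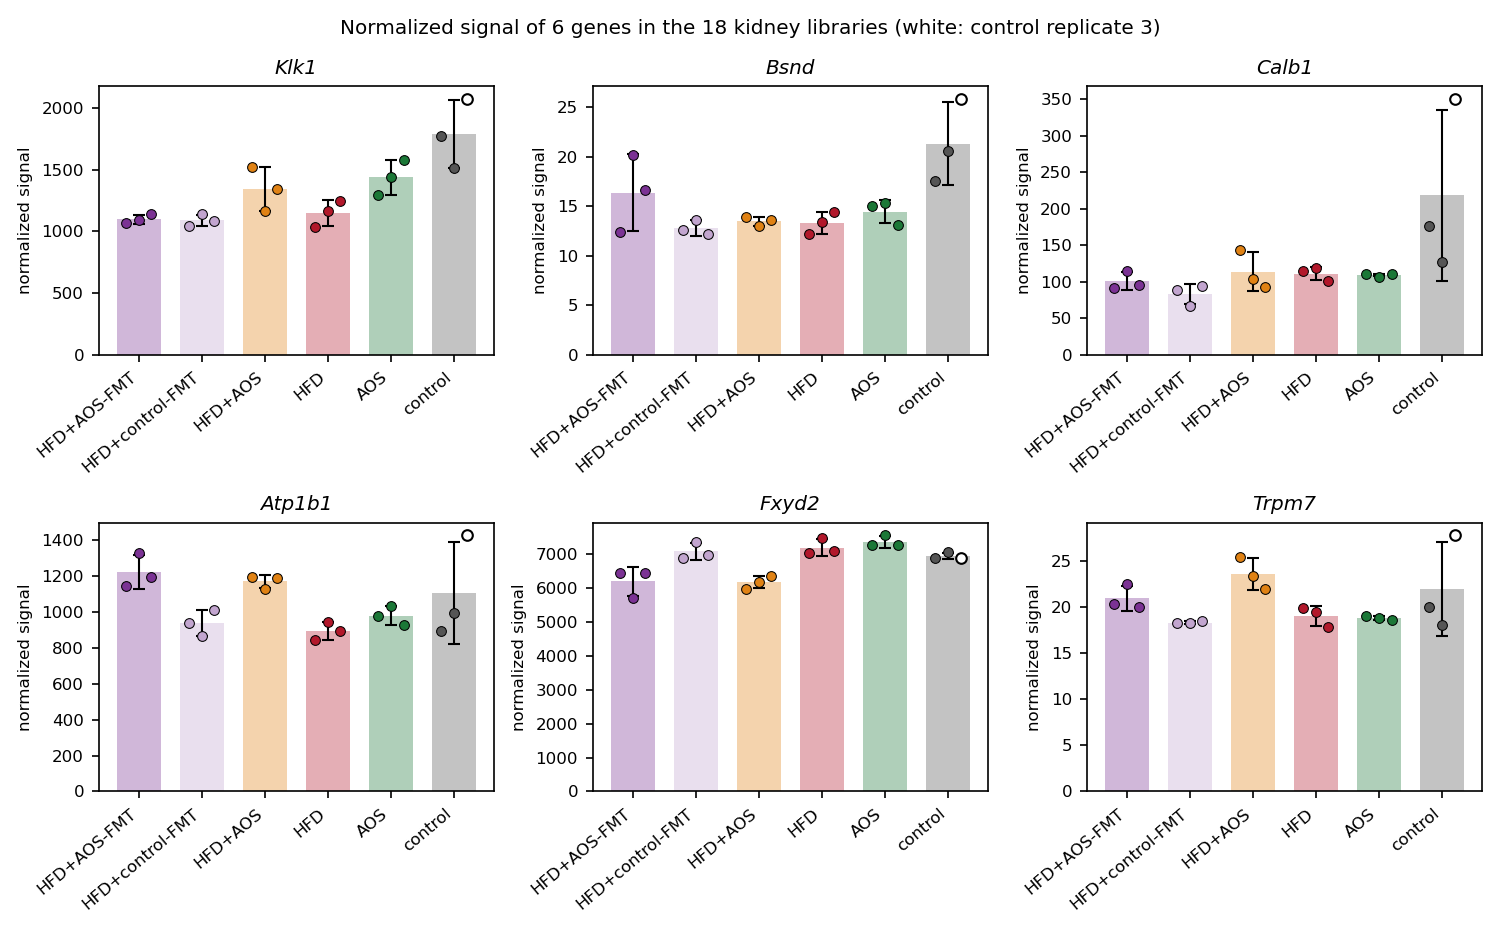
Normalized signal of 6 genes in each library, by group (points, with control replicate 3 in white), with bars for the mean and lines for the SD of 3 libraries. Klk1 lies between 1067 and 1138 in HFD+AOS-FMT libraries, between 1045 and 1139 in HFD+control-FMT libraries, and at 1517 or more in all controls. Atp1b1 is higher and Fxyd2 lower in the HFD+AOS-FMT and HFD+AOS libraries than in the HFD libraries.

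Klk1, which encodes tissue kallikrein, a protease that the connecting tubule releases into urine, passed 2 tests, that of HFD+AOS-FMT against control and the F test over all groups. It stood at 1067, 1092.5 and 1138 in HFD+AOS-FMT, 1045, 1139 and 1087 in HFD+control-FMT, and 1524, 1169 and 1340.2 in HFD+AOS libraries. It stood at 1036, 1166 and 1249.9 in HFD, 1298, 1438 and 1582 in AOS, and 1774, 1517 and 2074 in control libraries. The controls lay above all libraries on the diet but 1, HFD+AOS replicate 1, which was above control replicate 2. Klk1 averaged 1099 ± 36.2 in HFD+AOS-FMT and 1789 ± 279 in control libraries (SD, n = 3 each). It fell by 0.69 on the log2 scale in HFD+AOS-FMT against control (SE 0.12, limma adjusted p = 0.0108), lower in 3 of 3 libraries. The log2 difference of HFD+AOS-FMT was 0.01 against HFD+control-FMT and -0.06 against HFD, so the level of Klk1 was alike in these groups. Klk1 also differed over the 6 groups (F test of limma, adjusted p = 0.0272). The F test no longer called it without AOS replicate 2, HFD replicate 2, HFD+AOS replicate 3, any 1 of the HFD+AOS-FMT libraries, HFD+control-FMT replicate 1 or control replicate 1 (adjusted p up to 0.0631).

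The difference in Klk1 between HFD+AOS-FMT and control was between -0.80 and -0.58 and passed when any 1 of the 18 libraries was left out, control replicate 3 included (-0.58, limma adjusted p = 0.00959). It did not pass with only these 2 groups in the fit (adjusted p = 0.370) or with the germ cell transcripts as a term (-0.88, adjusted p = 0.312). All 3 controls and none of the HFD+AOS-FMT libraries carried those transcripts, so their presence and the group cannot be told apart here, and the term is estimated from the HFD libraries alone. The Klk1b genes are relatives of Klk1 (chr7:44225360-44229618) in the same kallikrein family, and how reads that match several of them were counted is not known. Klk1b5, the highest of them, averaged 1.90 over all libraries and was 0.97 lower on the log2 scale in HFD+AOS-FMT against control (limma adjusted p = 0.0126), and 0.87 lower without control replicate 3, its highest library (adjusted p = 0.0158). Cldn8, a tight junction claudin of the distal nephron, lay between 14.8 and 21.99 in 17 libraries and at 35.6 in control replicate 3.

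Of the sodium pump and the channels beside it, the subunits Atp1b1 and Fxyd2 stood on opposite sides in the libraries given AOS or its transplant on the diet. Atp1b1, the beta subunit that carries the pump to the membrane, stood at 1146, 1329 and 1197 in HFD+AOS-FMT, 939, 868 and 1009.7 in HFD+control-FMT, and 1193, 1129 and 1191 in HFD+AOS libraries. It stood at 842, 944 and 893 in HFD, 975, 1033 and 927 in AOS, and 895, 994 and 1427 in control libraries. The HFD+AOS-FMT and HFD+AOS libraries were each higher than all 3 HFD libraries and all 3 HFD+control-FMT libraries. Atp1b1 was 0.45 higher on the log2 scale in HFD+AOS-FMT against HFD and 0.39 higher in HFD+AOS against HFD, and neither passed (limma adjusted p = 0.148 and 0.157). Exons of Atp1b1 (chr1:164437109-164458355) overlap those of Nme7 on the other strand, which averaged 14.8, and the strand of the libraries is not stated.

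Fxyd2 (chr9:45399669-45410278), the gamma subunit that lowers the pump's affinity for sodium and takes part in magnesium handling, stood at 6447.5, 5700.1 and 6425 in HFD+AOS-FMT, 6883, 7355 and 6983 in HFD+control-FMT, and 5982, 6170.3 and 6343 in HFD+AOS libraries. It stood at 7017, 7469.6 and 7082 in HFD, 7251, 7550.1 and 7254 in AOS, and 6892, 7046 and 6883 in control libraries. Every HFD+AOS-FMT and HFD+AOS library was below every library of the other 4 groups. Fxyd2 was 0.22 lower on the log2 scale in HFD+AOS-FMT and in HFD+AOS against HFD, and neither passed (limma adjusted p = 0.178 and 0.134). After quantile normalization both differences were 0, because Fxyd2 held rank 3 in all 18 libraries and so received the same value in each.

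As a percentage of Fxyd2 in the same library, Atp1b1 was 17.8, 23.3 and 18.6 in HFD+AOS-FMT, 11.8 to 14.5 in HFD+control-FMT, 18.3 to 19.9 in HFD+AOS, 12 to 12.6 in HFD, 12.8 to 13.7 in AOS and 13.0 to 20.7 in control libraries. In the controls the value of 20.7 was that of control replicate 3. Kcnj10 and Kcnj16 encode a potassium channel on the blood side of the distal convoluted tubule. Kcnj10 lay between 6.74 and 10.6 in 17 libraries and at 14.2 in control replicate 3, and Kcnj16 between 346 and 482, with 351 in control replicate 3.

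Of the magnesium genes, Trpm6, the apical magnesium channel of the distal convoluted tubule, lay between 2.20 and 3.31 in 17 libraries and at 7.23 in control replicate 3. Trpm7, its widely expressed relative, stood at 20.4, 22.6 and 20.1 in HFD+AOS-FMT, 18.3, 18.3 and 18.5 in HFD+control-FMT, and 25.5, 23.4 and 21.98 in HFD+AOS libraries. It stood at 19.9, 19.5 and 17.9 in HFD, 19.0, 18.8 and 18.7 in AOS, and 20.1, 18.1 and 27.8 in control libraries. The HFD+AOS libraries were above the HFD, AOS and HFD+control-FMT libraries, with a log2 difference of 0.29 against HFD that did not pass (limma adjusted p = 0.223). Cnnm2, a protein of magnesium transport on the blood side, lay between 11.1 and 14.7 in all 18 libraries.

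The calcium genes held the members that varied most with control replicate 3. S100g, the small calcium binding protein calbindin-D9k, stood at 467, 376 and 488 in HFD+AOS-FMT, 394, 409 and 325 in HFD+control-FMT, and 757, 434 and 509.98 in HFD+AOS libraries. It stood at 594, 486 and 497 in HFD, 473, 737 and 686 in AOS, and 1178, 469.8 and 2677 in control libraries. Control replicates 1 and 3 were above all other libraries and control replicate 2 was within their range. Calb1, the calbindin of the distal tubule that carries calcium through the cell, stood at 91.9, 115 and 96.2 in HFD+AOS-FMT, 88.6, 67.3 and 94.1 in HFD+control-FMT, and 144, 104.5 and 93.2 in HFD+AOS libraries. It stood at 114, 118 and 101.2 in HFD, 110.2, 107 and 111 in AOS, and 177, 128 and 351 in control libraries. All 3 controls were above every HFD+AOS-FMT, HFD+control-FMT, HFD and AOS library. Trpv5, the apical calcium channel, lay between 2.14 and 6.85 in 17 libraries and at 15.9 in control replicate 3. Slc8a1, the sodium and calcium exchanger, stood at 5.79, 8.71 and 5.61 in HFD+AOS-FMT, 6.04, 5.28 and 5.83 in HFD+control-FMT, 10.3, 7.77 and 5.66 in HFD+AOS, 8.30, 9.03 and 6.17 in HFD, 8.34, 8.02 and 8.32 in AOS, and 10.6, 8.16 and 13.3 in control libraries. Atp2b1, a calcium pump of the plasma membrane, varied least of this role, between 9.23 and 11.8.

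Of the hormone genes, Pth1r, the receptor for parathyroid hormone in the proximal and distal tubule, lay between 313 and 415 in 17 libraries and at 217 in control replicate 3. Kl, which encodes Klotho, the co-receptor for the phosphate hormone FGF23, stood at 173, 179 and 169 in HFD+AOS-FMT, 150.3, 138 and 159.6 in HFD+control-FMT, and 200.4, 180.0 and 159.7 in HFD+AOS libraries. It stood at 171, 164 and 159.8 in HFD, 159.2, 152 and 178 in AOS, and 169, 178 and 141 in control libraries. The HFD+control-FMT libraries were below all HFD and all HFD+AOS-FMT libraries.

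In HFD against control, which asks what the diet alone changed, 0 of the 34 genes passed, and 0% of all tested genes did. At an unadjusted p under 0.05 there were 17 of the 34 members, a larger share than the 17.4% of all tested genes. Of the 34 genes 28 were lower in HFD, against 73.1% of all tested genes, and in 13 the HFD libraries lay wholly below the controls (12.6% of all), with 0 wholly above (3.03% of all). The median log2 difference was -0.41 for the members and -0.10 for all tested genes. After median centring, which moved the median of all genes by that amount, 26 of 34 were lower, with a median of -0.30.

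The smallest p-values were those of Klk1, Bsnd and Casr. Klk1 averaged 1151 ± 108 in HFD and 1789 ± 279 in control libraries (log2 difference -0.63, limma adjusted p = 0.137). Bsnd averaged 13.3 ± 1.13 in HFD and 21.3 ± 4.20 in control libraries (-0.63, adjusted p = 0.137). Casr averaged 7 ± 1.10 in HFD and 9.85 ± 1.40 in control libraries (-0.44, adjusted p = 0.214). Without control replicate 3 these differences were -0.52 for Klk1, -0.49 for Bsnd and -0.34 for Casr. Leaving out control replicate 3 gave a median of -0.14 over the members (-0.02 over all tested genes), with 27 of 34 lower and 0 passing. Without control replicate 2 there were 5 that passed, Calb1, Casr, Klk1, S100g and Wnk4, and 1.81% of all tested genes.

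**Figure D3:**
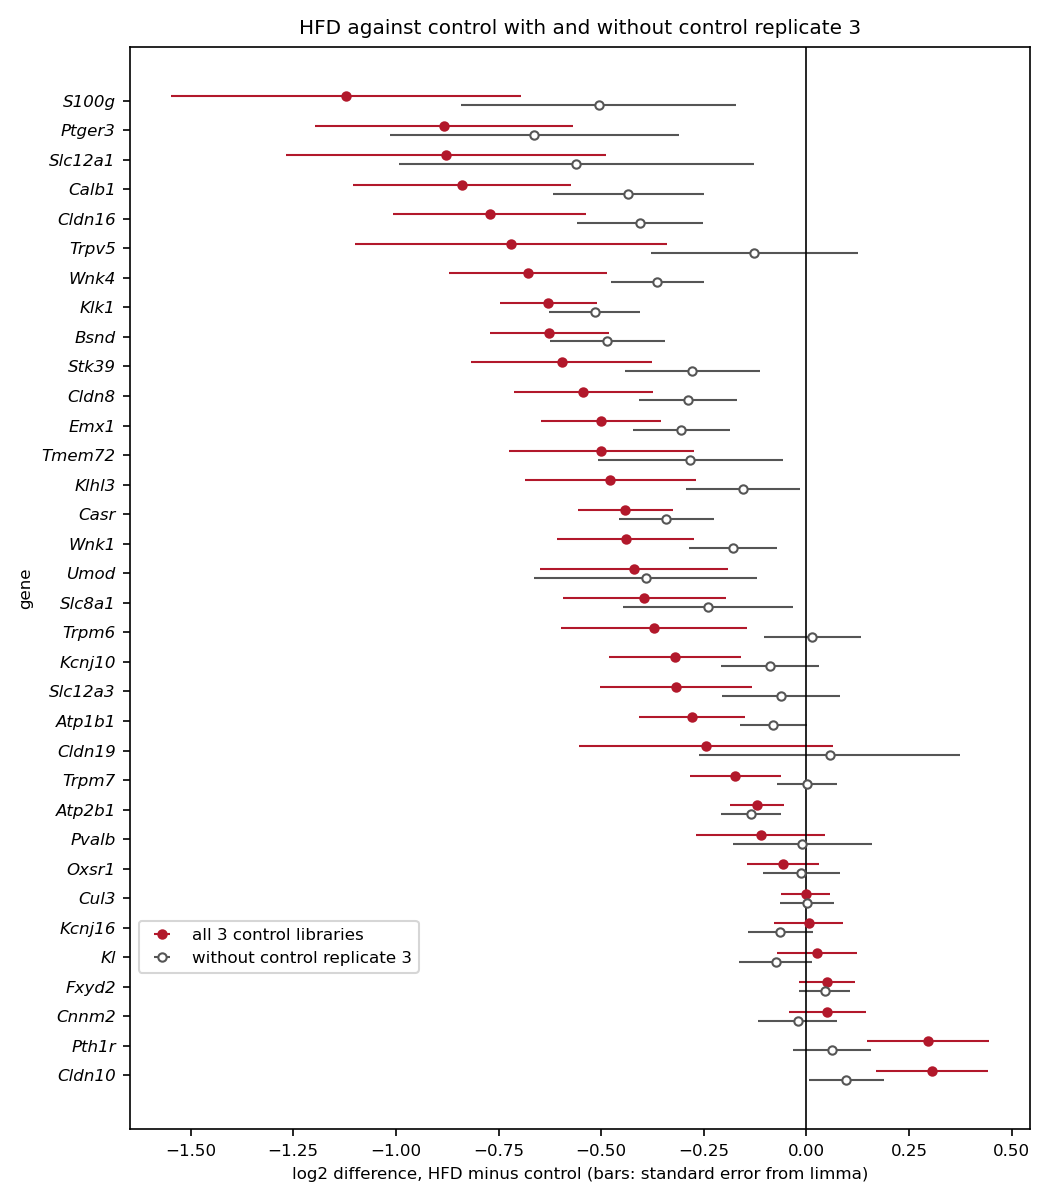
Log2 difference, HFD minus control, of 34 genes with all controls (filled) and without control replicate 3 (open), with bars for the standard error from limma. The median moves to -0.14 without control replicate 3, against -0.41 with all controls, and most differences stay below 0.

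HFD+AOS against HFD asks what AOS did on the diet. The genes were spread evenly around 0, with 14 of 34 lower (46.9% of all tested genes) and a median of 0.03 (0.01 for all). None of the 34 passed, against 0.823% of all tested genes, and 4 were at an unadjusted p under 0.05 (15.1% of all). In 5 members the HFD+AOS libraries lay above all HFD libraries (16.2% of all) and in 3 below (12% of all). By p the first was Fxyd2, at 6165 ± 181 in HFD+AOS and 7189 ± 245 in HFD libraries (SD, n = 3 each, log2 difference -0.22). Atp1b1 averaged 1171 ± 36.1 in HFD+AOS and 893 ± 50.8 in HFD libraries (0.39), and Trpm7 23.6 ± 1.78 in HFD+AOS and 19.1 ± 1.09 in HFD libraries (0.29). Control replicate 3 is in neither group and enters only through the shared spread, and without it these 3 passed (limma adjusted p = 0.00686 for Atp1b1, 0.0175 for Trpm7 and 0.0283 for Fxyd2), and so did 6.85% of all tested genes. HFD replicates 1 and 2 carried the germ cell transcripts and no HFD+AOS library did. With these transcripts as a term, estimated from the HFD libraries alone, the comparison rests on HFD replicate 3 as the only HFD library. The median log2 difference was then 0.10 for the members and 0.02 for all tested genes.

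HFD+AOS-FMT against HFD asks what the transplant labelled AOS did on the diet. Of the 34 genes 0 passed (0.175% of all tested genes), 6 were at an unadjusted p under 0.05 (13.3% of all), and 11 were lower (37.6% of all). The libraries did not overlap for 5 genes higher in HFD+AOS-FMT, Atp1b1, Tmem72, Slc12a1, Cldn16 and Trpm7 (17.3% of all), and for 1 lower, Fxyd2 (7.86% of all). Slc12a1 averaged 153 ± 65.3 in HFD+AOS-FMT and 80.8 ± 27.1 in HFD libraries (log2 difference 0.89, limma adjusted p = 0.341). The median was 0.08 for the members and 0.05 for all tested genes. Leaving out control replicate 3, again in neither group, let Atp1b1 (adjusted p = 0.00412) and Fxyd2 (adjusted p = 0.0364) pass in limma, with 4.89% of all tested genes. No HFD+AOS-FMT library carried the germ cell transcripts. With these as a term, this comparison too rests on HFD replicate 3 as the only HFD library. The median log2 difference was then 0.12 for the members and 0.05 for all tested genes.

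HFD+control-FMT against HFD asks what a transplant itself did. None of the 34 genes passed (0% of all tested genes), 0 were at an unadjusted p under 0.05 (4.5% of all), and 23 were lower (46.3% of all). The HFD+control-FMT libraries lay below all HFD libraries for 6 genes (6.38% of all) and above for 0 (9.07% of all). These 6 included 4 calcium genes, Slc8a1, Calb1, S100g and Trpv5, with Kl and Kcnj10. Slc8a1 averaged 5.72 ± 0.392 in HFD+control-FMT and 7.83 ± 1.49 in HFD libraries, with a log2 difference of -0.38. Calb1 averaged 83.3 ± 14.2 in HFD+control-FMT and 111 ± 8.95 in HFD libraries (-0.42), and Kl 149 ± 10.9 in HFD+control-FMT and 165 ± 5.50 in HFD libraries (-0.15). The limma adjusted p was 0.9996 for each, and the median difference was -0.03 for the members and 0.01 for all tested genes.

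The transplants were compared with each other as HFD+AOS-FMT against HFD+control-FMT. Of the 34 genes 28 were on the higher side in HFD+AOS-FMT and 6 on the lower (38% of all tested genes), with a median of 0.17 against 0.04 for all. None passed (0% of all), 4 were at an unadjusted p under 0.05 (7.02% of all), and the libraries did not overlap for 8 higher (12.4% of all) and 2 lower (5.67% of all). Atp1b1 averaged 1224 ± 94.4 in HFD+AOS-FMT and 939 ± 70.6 in HFD+control-FMT libraries (log2 difference 0.38, limma adjusted p = 0.545). Casr averaged 8.70 ± 1.24 in HFD+AOS-FMT and 6.61 ± 0.413 in HFD+control-FMT libraries (0.34, adjusted p = 0.545). Fxyd2 averaged 6191 ± 425 in HFD+AOS-FMT and 7074 ± 248.6 in HFD+control-FMT libraries (-0.19, adjusted p = 0.581). In the fit without control replicate 3, 0 members and 0.117% of all tested genes passed, with Atp1b1 nearest the threshold (adjusted p = 0.0512).

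HFD+AOS-FMT against control was the comparison with a member past the threshold. Klk1 was that 1 gene of 34, against 2.32% of all tested genes, and 1.33% of all were called and lower. Of all genes called 57.3% were lower, against 40.5% after quantile normalization and 42.3% after median centring. At an unadjusted p under 0.05 there were 11 members (19% of all), 23 were lower (63.1% of all), and HFD+AOS-FMT lay below all controls in 6 (10.1% of all) and above in 0 (5.84% of all). Calb1 averaged 101.03 ± 12.2 in HFD+AOS-FMT and 218 ± 117 in control libraries (log2 difference -0.98, limma adjusted p = 0.0653) and passed after median centring (-0.92, adjusted p = 0.0490). S100g averaged 444 ± 59.7 in HFD+AOS-FMT and 1442 ± 1127 in control libraries (-1.37, adjusted p = 0.103), its groups overlapped, and without control replicate 3 the difference was -0.75 (adjusted p = 0.232). Without control replicate 3, Klk1 and Atp1b1 passed (0.37, adjusted p = 0.0184, for Atp1b1) with 4.36% of all tested genes, and Calb1 was at -0.58 (adjusted p = 0.0944). Without control replicate 2 Calb1, Klk1, S100g and Slc8a1 passed, with 6.53% of all tested genes, and without control replicate 1 Cldn8 and Klk1, with 1.93%.

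AOS against control asks what AOS did without the diet. Of the 34 genes 0 passed (0.0333% of all tested genes), 8 were at an unadjusted p under 0.05 (12.7% of all), and 29 were lower in AOS (72.9% of all). The AOS libraries lay below all controls for 6 genes (10.1% of all) and above for 1, Fxyd2 (3.07% of all). Bsnd averaged 14.5 ± 1.21 in AOS and 21.3 ± 4.20 in control libraries (log2 difference -0.52, limma adjusted p = 0.313). Calb1 averaged 109 ± 1.87 in AOS and 218 ± 117 in control libraries (-0.86, adjusted p = 0.345). Casr averaged 7.63 ± 0.589 in AOS and 9.85 ± 1.40 in control libraries (-0.32, adjusted p = 0.358). Without control replicate 3 Calb1 was at -0.46 (adjusted p = 0.507), Bsnd at -0.37 and Casr at -0.22. The median was -0.31 for the members and -0.09 for all tested genes, and without control replicate 3 it was -0.11, with 0 passing. After median centring 27 of the 34 genes were lower, with a median of -0.22. All 3 controls and no AOS library carried the germ cell transcripts, so their presence and the group cannot be told apart here either. This comparison and the others against control or against HFD share their control or HFD libraries, so they are not independent of each other.

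The interaction, the effect of AOS on the diet minus its effect without it, was above 0 for 29 of the 34 genes and below for 5 (31.6% of all tested genes below), with a median of 0.35 against 0.11. None of the 34 passed (0% of all), and 14 were at an unadjusted p under 0.05 (12.4% of all). Fxyd2 (-0.30), Klk1 (0.53) and Trpm7 (0.48) had the smallest p, each with a limma adjusted p of 0.366. Without control replicate 3 they were at -0.30, 0.41 and 0.31 in the same order, with an adjusted p of 0.336, 0.389 and 0.365. The median of the interaction without control replicate 3 was 0.17 for the members and 0.03 for all tested genes, and 0 passed. The F test over the 6 groups called Klk1 (1.02% of all tested genes), with 14 members at an unadjusted p under 0.05 (17.7% of all), and Bsnd (adjusted p = 0.0965) and Fxyd2 (adjusted p = 0.121) next. When control replicate 3 was left out it called Atp1b1, Fxyd2, Klk1 and Trpm7, with 6.36% of all tested genes.

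The levels of 6 gene pairs were correlated over the 18 libraries after the mean of each group was removed, with 100000 permutations within groups. Umod and Slc12a1 gave Pearson's r = 0.899 (permutation p = 0.00049, adjusted over the 6 pairs 0.00294) and Spearman's rho = 0.889 (permutation p = 0.00135, adjusted 0.0081). Without the 2 libraries farthest from the median of Umod r was 0.880, and without control replicate 3 it was 0.965. Slc12a3 and Pvalb, both of the distal convoluted tubule, gave r = 0.713 (permutation p = 0.0223, adjusted 0.0669) and rho = 0.746 (permutation p = 0.0076, adjusted 0.0228), and r was 0.753 without the 2 farthest libraries, so that rho passed and r did not. The points share libraries and the cell makeup of each piece of kidney, whose part was not tested.

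The other 4 pairs passed by neither measure. Wnk4 and Klhl3, the kinase and the adaptor that removes it, gave r = 0.800 (permutation p = 0.0821, adjusted 0.123) and rho = 0.523 (permutation p = 0.129, adjusted 0.194), with r = -0.0844 without the 2 farthest libraries. Calb1 and S100g gave r = 0.780 (permutation p = 0.133, adjusted 0.160) and rho = 0.337 (permutation p = 0.292, adjusted 0.350), with r = 0.167 without the 2 farthest. Cldn16 and Cldn19 gave r = 0.658 (permutation p = 0.0639, adjusted 0.123) and rho = 0.614 (permutation p = 0.0491, adjusted 0.0982), with r = 0.197. These 3 values rested on control replicate 3 and 1 other library each. Kcnj10 and Kcnj16 gave r = -0.241 (permutation p = 0.613, adjusted 0.613) and rho = -0.0299 (permutation p = 0.936, adjusted 0.936), with r = 0.113 without the 2 farthest.

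**Figure D4:**
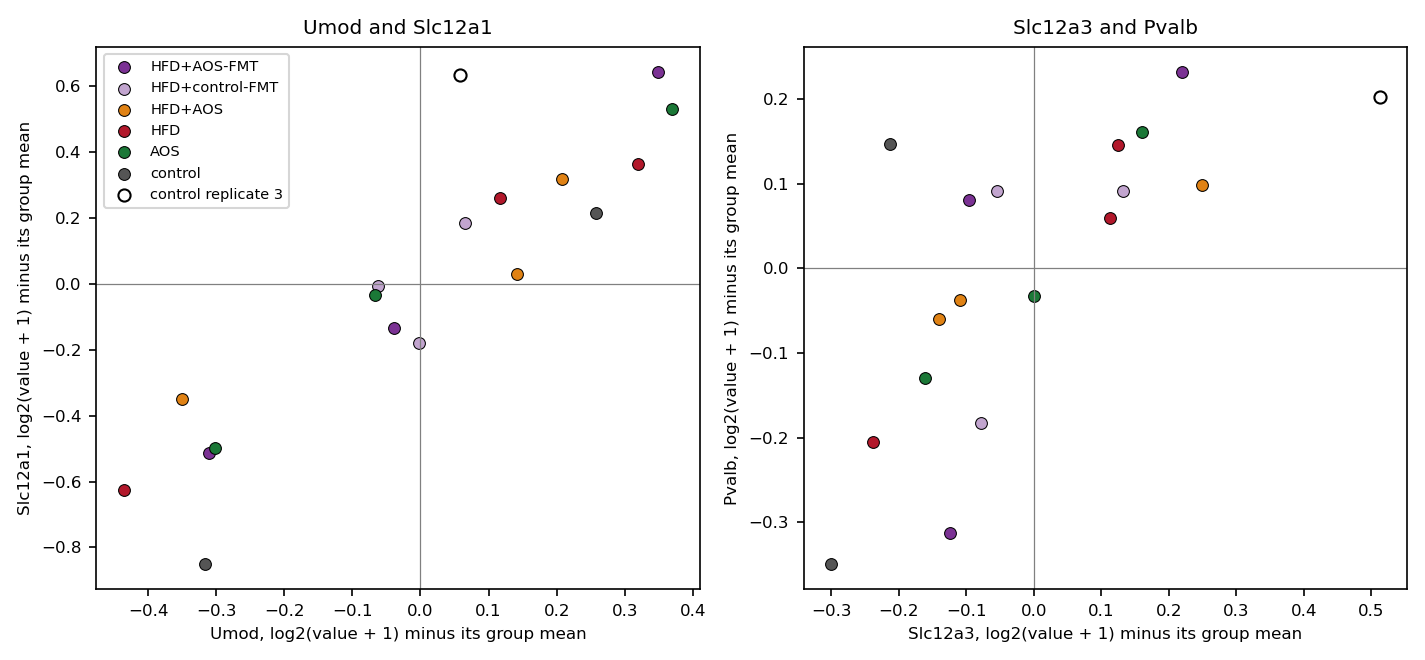
Scatter plots of log2(value + 1) minus the mean of its group for Umod against Slc12a1 (left) and Slc12a3 against Pvalb (right), 1 point per library, coloured by group. Both pairs run upward over the 18 libraries, with r = 0.899 at left and 0.713 at right, and control replicate 3 (white) is off the line of the others at left.

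Of 33 other genes of the same pathways, 31 were tested, Wnk3 and Kcna1 being under the filter. In all 8 comparisons 0 of the 31 passed in limma. At an unadjusted p under 0.05 there were 9 in HFD+AOS-FMT against HFD (13.3% of all tested genes), 7 in HFD+AOS against HFD (15.1%), 0 in HFD+control-FMT against HFD (4.5%) and 5 in HFD+AOS-FMT against HFD+control-FMT (7.02%). There were 1 in HFD+AOS-FMT against control (19% of all tested genes), 10 in HFD against control (17.4%), 9 in AOS against control (12.7%) and 8 for the interaction (12.4%). Egf, a growth factor of the distal nephron that supports magnesium uptake, differed over the 6 groups in the F test (limma adjusted p = 0.0481). With 1 library left out, no gene of this list passed the F test unless that library was HFD replicate 3, control replicate 2 or control replicate 3. Egf stood at 236, 296 and 276 in HFD+AOS-FMT, 197, 202 and 172 in HFD+control-FMT, and 214, 218 and 230.1 in HFD+AOS libraries. It stood at 141, 189 and 203 in HFD, 220.1, 191 and 185 in AOS, and 251, 274 and 325 in control libraries. All HFD+AOS-FMT libraries were above all HFD and all HFD+control-FMT libraries, by 0.61 and 0.50 on the log2 scale (limma adjusted p = 0.0704 and 0.495), and all control libraries were above all HFD libraries.

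The remaining pathway genes named here each had the first or second smallest p in a comparison, and none passed. Fgfr1, a receptor of FGF23, averaged 11.9 ± 1.18 in HFD+AOS-FMT and 9.08 ± 0.113 in HFD libraries (log2 difference 0.35, limma adjusted p = 0.0730), and 9.08 ± 0.113 in HFD and 11.2 ± 1.23 in control libraries (-0.27, adjusted p = 0.227, and -0.19 without control replicate 3). Esrrg, a nuclear receptor, averaged 11.6 ± 0.404 in HFD+AOS and 8.54 ± 0.429 in HFD libraries (0.40, adjusted p = 0.0536). Irx3, a transcription factor, averaged 19.4 ± 2.42 in HFD+AOS and 13.9 ± 0.634 in HFD libraries (0.45, adjusted p = 0.0867). Without control replicate 3, Esrrg and Irx3 passed in HFD+AOS against HFD (6.85% of all tested genes did), and Egf and Fgfr1 in HFD+AOS-FMT against HFD (4.89% of all). Slc41a3, a magnesium carrier, reached 1 in the 3 controls and HFD replicate 2 alone, so the filter itself favours a lower level outside the controls, and its values are a description. It averaged 0.733 ± 0.156 in AOS and 1.53 ± 0.526 in control libraries, a log2 difference of -0.53, and -0.37 without control replicate 3. It averaged 0.823 ± 0.238 in HFD+AOS-FMT libraries, -0.46 against control and -0.30 without control replicate 3. Pcbd1 was at -0.13 in HFD+AOS-FMT against control, with and without that library (adjusted p = 0.323 and 0.341). In HFD+control-FMT against HFD, Cab39l, a partner of the kinase SPAK, was at 0.16 (adjusted p = 0.9996).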

How the data were processed

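Illumina libraries were made from 1 µg of total RNA of frozen kidney, per the labels' protocols. The submitters' processing notes name the aligner Bowtie 0.12.2 and the build mm10, and for the counting program, annotation and normalization nothing is given in the sources used here. The deposited table holds a normalized signal for every symbol in every library, in no stated unit. The sums of the 18 columns varied by 3.50% (coefficient of variation), and by 0.815% once values were weighted by transcript length (97.3% of entries had one), so the signal was treated as normalized for length and depth. Of 19545 entries, 26 symbols turned into dates and 1 repeated symbol were left out.

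Genes were kept if their signal reached 1 in 3 libraries (12030), and their values were fitted as log2(value + 1) in limma 3.58.1 (R 4.3.3) with 6 groups, 12 residual degrees of freedom, trend and robust estimation, two-sided tests, and Benjamini-Hochberg adjustment over all tested genes within each of 8 contrasts and the F test (threshold 0.05). This scale understates the change of low genes. The plan named this test for normalized values of a known unit, and it was kept for the signal. A standard deviation covers the spread between the 3 libraries of a group. A standard error from limma rests on the spread that all 6 groups share in the fit, so a library outside a comparison can change it. With unknown depth per library no counting interval can be stated. Correlations used Python 3.11.15 with numpy 2.4.6. The tests were tried on simulated data. In each comparison the members that passed were named, or the 3 with the smallest p where fewer passed, and of the other pathway genes those that passed or the 2 with the smallest p, except that 1 such gene is not reported here. The members and lists were chosen with earlier results of these data known, as was the germ cell list. Gene coordinates are from GENCODE M21 on GRCm38 (mm10), and promoters from RefSeq. The alternatives were quantile normalization, another pseudocount, no filter, other estimates of the spread, array weights, only the compared groups, the replicate number as a block, and leaving out each library. Median centring and a germ cell term without Smcp were added after the data were seen.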

Additional observations from a re-analysis of the deposited data

How the results depend on the processing

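The number of reads is unknown, and with 3 libraries per group 1 library can decide a call. With 1 library left out, the members called ran from 0 to 5 for HFD against control (0% to 1.81% of all tested genes), 0 to 3 for HFD+AOS against HFD (0.0833% to 6.85%), 0 to 2 for HFD+AOS-FMT against HFD (0% to 4.89%), 1 to 4 for HFD+AOS-FMT against control (0.507% to 6.53%), and 0 to 4 for the F test (0.383% to 6.36%), which called 1 with all libraries. The other pathway genes called ran from 0 to 2 for HFD against control, both AOS groups against HFD and the F test, and from 0 to 1 in AOS against control. Array weights called 3 members for HFD+AOS against HFD (7.84% of all), 2 for HFD+AOS-FMT against HFD (5.33%), 2 for HFD+AOS-FMT against control (4.29%) and 5 for the F test (8.05%), with 2, 2 and 4 other pathway genes in the first, second and last of these. With only the compared groups in the fit, 1 member was called for HFD+AOS against HFD (3.02%), 1 for HFD+AOS-FMT against HFD (1.55%) and 0 for HFD+AOS-FMT against control (0.0426%), with 2 and 1 other pathway genes in the first and second. Median centring called 2 members in HFD+AOS-FMT against control (2.79%) and 1 other pathway gene each in HFD+AOS and in HFD+AOS-FMT against HFD. Quantile normalization called 1 other pathway gene in HFD+AOS against HFD. The germ cell term called 0 members for HFD+AOS-FMT against control (0.00831%) and the F test (0%), and 0 other pathway genes in the F test. The planned germ cell term was not run, since Smcp, at 11.7 to 33.6 in all 18 libraries, put every library over its limit and left the term constant. For each, the cause was not tested.

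The replicate numbers gave no sign of pairing the libraries. Libraries were compared by what was left of each gene after its group mean was removed. These remainders had a median correlation of -0.0198 (-0.159 to 0.260) between same-numbered libraries of different groups. For other numbers it was 0.0115 (-0.286 to 0.265). Of 18 libraries, 6 matched best with one of their own number. With 3 libraries per group these values cannot show that there is no pairing. The replicate block called 1 member in HFD+AOS-FMT against control, Klk1 as without it, and 0 other pathway genes in the F test, as did the fit without trend and robust estimation. The correlation of Kcnj10 and Kcnj16 turned to 0.0577 under the block and ran from -0.415 to 0.271 when 1 library was left out. Pearson's r of Slc12a3 and Pvalb, which did not pass with all libraries, ran from 0.630 to 0.856 and passed without any 1 of the 3 controls. Over all alternatives, 559 of 622 counts and correlations stayed on their side (counts within 1.5 times). Most of the counts were 0 with all libraries, and a count that stayed at 0 is among the 559.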
